A study of Rattus norvegicus with 16 samples.

Results

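NF-kB is a family of dimeric transcription factors that the cell keeps inactive until an inflammatory signal arrives, and the genes described here encode its 5 subunits and 5 of the IkB proteins that bind them. The subunit genes are Nfkb1, Nfkb2, Rel, Rela and Relb. The inhibitor genes are Nfkbia, Nfkbib and Nfkbie, which encode the classical inhibitors IkB-alpha, IkB-beta and IkB-epsilon, and Nfkbiz and Bcl3, which encode the atypical, mainly nuclear family members IkB-zeta and Bcl-3. They were chosen by name as members of this family, with no threshold on a measured value, though earlier results of these data were known. They are 10 of the 21842 gene symbols in the deposited count matrix. Each member carried 1 gene identifier, and 10 of 10 passed the filter on low counts.

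The study sequenced RNA in bulk from microglia, the macrophages that reside in brain tissue, of male Wistar (Hsd/Cpb:WU) rats. The brains were dissociated mechanically in the cold, and the sorting gate took cells that excluded DAPI, stained strongly for CD11b and stained at an intermediate level for CD45. The rats received X-rays at a dose of 14 Gy or a sham procedure, and 6 weeks later an intraperitoneal injection of LPS (lipopolysaccharide, a bacterial cell wall component sensed through toll-like receptor signalling) or of PBS, the saline vehicle. The 4 groups were sham rats given PBS, sham rats given LPS, irradiated rats given PBS and irradiated rats given LPS, with 4 libraries each. The labels used here state neither the rats' age nor the LPS dose nor the interval between injection and sorting. They do not name the animal behind a library either, and a p-value therefore reflects the spread between libraries, part of which may be technical.

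In resting cells the classical inhibitors hold NF-kB dimers in the cytoplasm. A signal from a toll-like or cytokine receptor activates the IkB kinase complex, which marks these inhibitors for ubiquitination and degradation, so that dimers of RelA, c-Rel and p50 reach the nucleus. A separate, non-canonical branch runs through the kinase NIK (gene Map3k14) to RelB and p52, the product of Nfkb2. Several family genes are themselves NF-kB targets: IkB-alpha is resynthesised and ends the signal, while IkB-zeta and Bcl-3 bind p50 or p52 in the nucleus and alter which target genes are transcribed.

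Promoter sequence was available from RefSeq (build GRCr8) for 9 members, as windows of 300 bases running from 250 bases before to 50 bases after the annotated start. Relb had no entry. The stretches below are shown because they are the letters in these windows that match the sequence NF-kB dimers are known to bind. The kappa-B consensus, a motif of 10 bases searched on both strands, occurred in the windows of 7 of these 9 members, and in 2515 of 33469 such windows over all genes (7.5%). The members' windows held 57.0% to 77.3% G and C, against a median of 51.7% over all windows, and 12.1% of the 10766 windows within that range of composition held the consensus. The looser motif GGGNNNNNCC, whose reverse complement is GGNNNNNCCC and of which the consensus is a subset, occurred in 9 of 9 member windows and in 47.3% of all windows. In each stretch of 30 bases, written 5′ to 3′ on the strand of the gene, capitals mark the consensus match; in Rel they cover a pair of overlapping matches.
Nfkb1, chr2:226805440-226805469, minus strand: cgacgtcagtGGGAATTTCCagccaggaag
Nfkb2, chr1:255108344-255108373, plus strand: tggtattttcGGGACTTTCCtaagagcact
Rel, chr14:101922000-101922029, minus strand: gtaggcagcGGGAAATCCCCccccgttccg
Nfkbia, chr6:78597084-78597113, minus strand: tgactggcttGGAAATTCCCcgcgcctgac
Nfkbie, chr9:22948017-22948046, minus strand: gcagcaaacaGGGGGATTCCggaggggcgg
Nfkbiz, chr11:58251698-58251727, plus strand: tttttggcctGGGAATTTCCagcgtgtgga
Bcl3, chr1:88613574-88613603, minus strand: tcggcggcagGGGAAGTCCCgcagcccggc

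Nfkb1 and Nfkbiz carried the same 10 letters in capitals, and those of Nfkbia were their reverse complement, the same site on the other strand. The match began 13 bases before the start in Nfkbiz, 20 before it in Nfkb2, 31 in Nfkbia, 38 in Bcl3 and 164 in Nfkbie, whereas that of Nfkb1 lay after the annotated start. The window of Rel held matches at 4 positions. The windows of Rela and Nfkbib did not contain these consensus letters. A match is a description of the letters, and binding was not measured.

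The count files of the libraries held 30560 gene identifiers, and library totals were 16849603 to 22482126 counts in sham PBS, 16573558 to 19785105 in sham LPS, 14309458 to 25015047 in irradiated PBS and 18997145 to 62745496 in irradiated LPS. Levels are given as CPM, the gene's counts relative to a library total that was scaled by the trimmed mean of M-values (TMM). Since transcript lengths were not used, the level of one gene is not compared with that of another. The 9 microglial markers, which include P2ry12, Tmem119 and Cx3cr1, summed to 40100 to 43600 CPM in sham PBS, 34500 to 38600 in sham LPS, 20500 to 25200 in irradiated PBS and 16000 to 20300 in irradiated LPS. The sum over the 7 markers of border-associated macrophages moved the other way, from 308 to 365 CPM in sham PBS and 424 to 977 in sham LPS to 1120 to 1430 in irradiated PBS and 3010 to 4190 in irradiated LPS. With LPS in sham rats, Mrc1, Cd163 and Clec10a rose in the edgeR test used below. Lyve1, Folr2, Pf4 and F13a1 did not pass there (edgeR adjusted p = 0.66 to 0.977). Summed monocyte markers (7 of 8 listed were in the files) reached 146 to 222, 280 to 384, 396 to 473 and 570 to 910 CPM in the same order of groups, and T and NK cell markers (9 of 11) 13.1 to 21.4, 19.7 to 187, 92.6 to 176 and 500.0 to 1010 CPM. Summed neutrophil markers lay between 229 and 403 CPM in every library outside irradiated LPS, and between 361 and 2270 CPM within it, with Mpo at 0 in all 16 libraries and Elane at 0 in all but irradiated LPS. Csf3r made up most of this sum in sham rats and fell with LPS, from a mean of 327.9 to 220.5 CPM (edgeR adjusted p = 2.98e-05). Cxcr2 rose there from 0.531 to 5.03 CPM (edgeR adjusted p = 5.87e-05). S100a8, S100a9, Ngp, Camp, Mmp8 and Retnlg did not pass in that comparison, so a steady sum does not show a steady neutrophil content. The libraries numbered 1 of both irradiated groups stood apart, with oligodendrocyte markers at 420 and 533 CPM and neuronal markers at 55.7 and 91.8 CPM, and the irradiated LPS library of this pair held the neutrophil maximum. The part of these other cells in the results below was not tested. In bulk RNA, fewer cells of a type and less RNA per cell cannot be told apart.

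LPS raised most of the family in both sham and irradiated rats, as the comparison of LPS with PBS within each condition showed. In sham rats 9 of the 10 members rose and none fell, in edgeR's quasi-likelihood test with adjusted p-values below 0.05 over 13608 genes. The background for that count is that 15.2% of all tested genes rose and 14.5% fell, 29.6% together. The rise covered 5 of 5 subunits and 4 of 5 inhibitors, all but Nfkbie. The median log2 fold change was 0.93 for the subunits and 2.02 for the inhibitors, beside -0.01 over all tested genes. In irradiated rats 9 of 10 also rose and none fell, against 17% and 14.5% of all genes. Here the inhibitors rose in 5 of 5 cases (median 2.03) and the subunits in 4 of 5 (median 0.87), all but Rela, beside a median of -0.02 over all genes. The libraries with and without LPS did not overlap for 9 members in sham rats and for 10 in irradiated rats, against 29.9% and 32.3% of all genes.

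**Figure D1:**
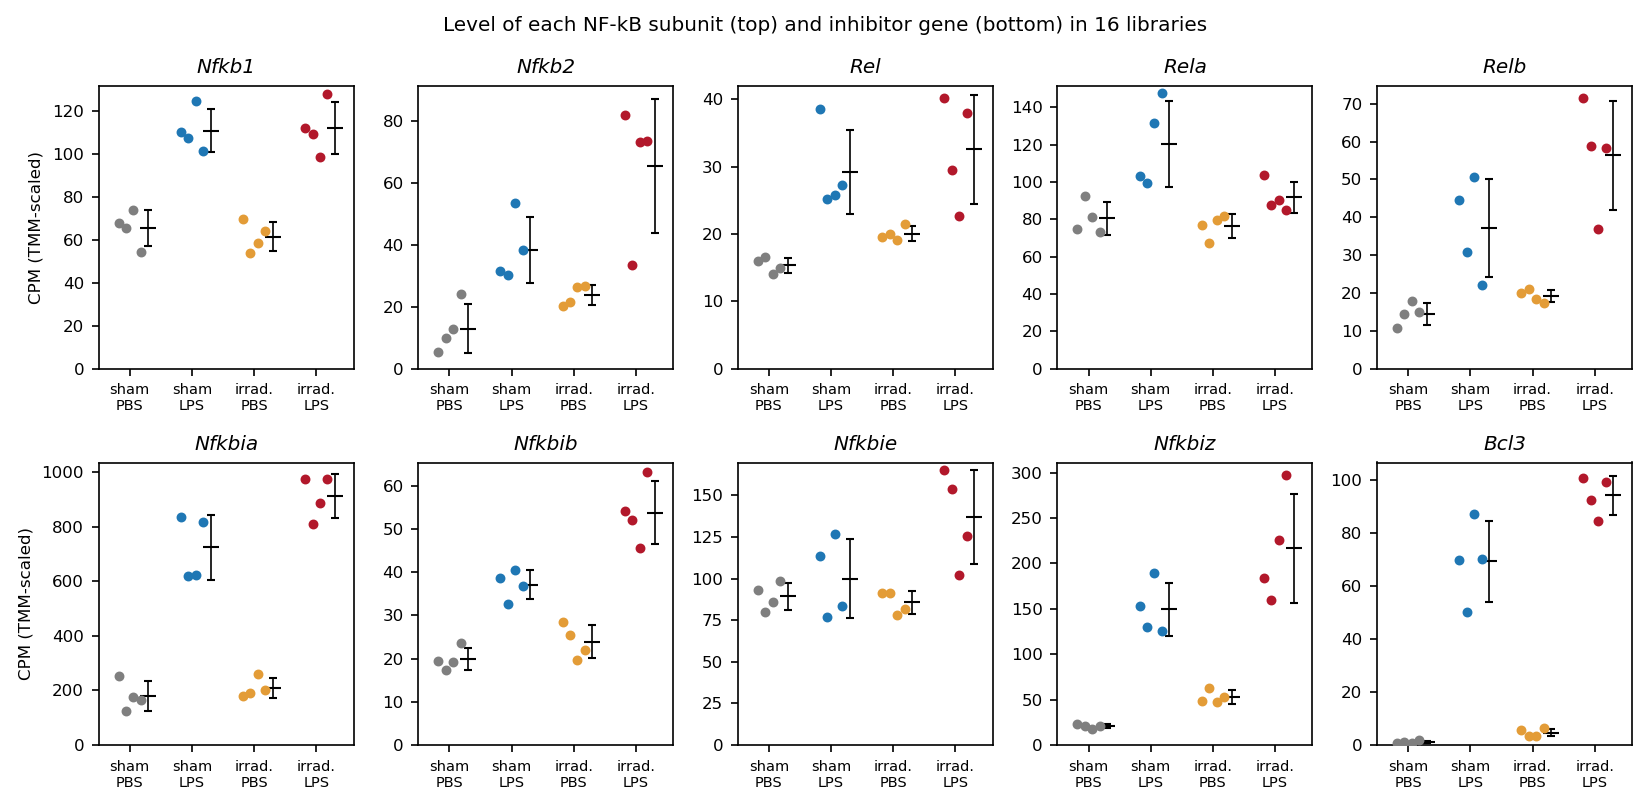
Level of each member in TMM-scaled CPM (vertical axis, linear, from 0) in the 4 groups. Points are libraries, and bars give the mean and SD of 4 libraries. Both LPS groups lie above both PBS groups for most members, with Nfkbie and Rela the exceptions, and the irradiated PBS libraries of Nfkbiz and Bcl3 lie above all sham PBS libraries.

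Among the subunits, Nfkb2 and Relb, the genes of the non-canonical dimer, had the larger fold changes with LPS. Nfkb2, whose product p100 is processed to p52, stood at 5.29, 9.87, 12.7 and 24.0 CPM in the sham PBS libraries and at 31.6, 30.3, 53.5 and 38.5 CPM in the sham LPS libraries. In irradiated rats it went from 20.3, 21.5, 26.3 and 26.7 CPM to 81.9, 33.6, 73.3 and 73.7 CPM. The sham PBS libraries spread over a wide range and the irradiated LPS library numbered 2 lay far below the others of its group, yet LPS and PBS libraries did not overlap in either condition. The log2 fold change of Nfkb2 was 1.56 ± 0.37 in sham rats (SE, n = 4 per group; 2.96-fold, edgeR adjusted p = 0.00494) and 1.47 ± 0.36 in irradiated rats (2.76-fold, edgeR adjusted p = 0.00607).

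Relb, the partner of p52, was measured at 10.6, 14.5, 17.8 and 14.8 CPM in sham PBS and at 44.6, 30.9, 50.6 and 22.2 CPM in sham LPS. Its irradiated PBS libraries held 19.9, 21.0, 18.4 and 17.2 CPM and its irradiated LPS libraries 71.6, 58.7, 36.9 and 58.3 CPM. The LPS libraries were all higher but varied more than the PBS libraries, with an SD of 12.9 CPM in sham LPS against 2.92 in sham PBS. The log2 fold change of Relb was 1.36 ± 0.23 in sham rats (edgeR adjusted p = 0.000297) and 1.56 ± 0.23 in irradiated rats (edgeR adjusted p = 5.85e-05).

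Nfkb1, which encodes p105 and its product p50, varied little within groups, with SDs of 6.86 to 12.1 CPM. Its sham libraries held 67.8, 65.7, 73.9 and 54.2 CPM with PBS and 110.2, 107.4, 124.8 and 101.3 CPM with LPS. The irradiated libraries held 69.6, 53.8, 58.4 and 64.1 CPM with PBS and 112.1, 109.3, 98.7 and 128.0 CPM with LPS. Levels were close in sham and irradiated rats within each treatment. The log2 fold change of Nfkb1 was 0.76 ± 0.11 in sham (1.70-fold, edgeR adjusted p = 5.21e-05) and 0.87 ± 0.11 in irradiated rats (1.82-fold, edgeR adjusted p = 1.01e-05).

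Rel, which encodes c-Rel, a subunit found mainly in blood-lineage cells, rose from 15.9, 16.5, 14.0 and 14.9 CPM to 38.5, 25.2, 25.9 and 27.3 CPM in sham rats. In irradiated rats it rose from 19.6, 20.0, 19.0 and 21.5 CPM to 40.1, 29.5, 22.6 and 38.0 CPM. The PBS libraries sat within a few CPM of each other and the LPS libraries spread over a wide range. Its log2 fold changes were 0.93 ± 0.17 in sham (edgeR adjusted p = 0.000468) and 0.70 ± 0.17 in irradiated rats (edgeR adjusted p = 0.00378).

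Rela, which encodes the main transactivating subunit p65, changed least among the subunits. In sham rats it stood at 74.6, 92.6, 81.4 and 73.2 CPM with PBS and at 103.2, 99.3, 131.8 and 147.4 CPM with LPS, a log2 fold change of 0.58 ± 0.12 (edgeR adjusted p = 0.00145). In irradiated rats the libraries held 76.8, 67.4, 79.5 and 81.7 CPM with PBS and 103.9, 87.7, 90.4 and 84.8 CPM with LPS. These groups did not overlap, but the log2 difference of 0.26 ± 0.12 did not pass the test (edgeR adjusted p = 0.113, unadjusted 95% interval of the fold 1.005 to 1.433).

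Of the classical inhibitors, Nfkbia had the largest change with LPS. IkB-alpha, its product, is the inhibitor best known for rapid resynthesis after NF-kB activation. Nfkbia stood at 252.9, 123.8, 174.0 and 165.1 CPM in sham PBS and at 836.6, 617.4, 623.0 and 817.2 CPM in sham LPS. In irradiated rats it stood at 179.3, 191.7, 261.6 and 203.0 CPM with PBS and at 975.2, 809.7, 886.4 and 974.9 CPM with LPS. Every LPS library was above every PBS library. The log2 fold change was 2.02 ± 0.18 in sham rats (4.04-fold, edgeR adjusted p = 4.76e-07) and 2.13 ± 0.18 in irradiated rats (4.36-fold, edgeR adjusted p = 1.96e-07).

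Nfkbib, which encodes IkB-beta, rose from 19.4, 17.4, 19.2 and 23.6 CPM to 38.6, 32.6, 40.5 and 36.9 CPM in sham rats. In irradiated rats it rose from 28.4, 25.5, 19.7 and 22.1 CPM to 54.3, 52.2, 45.5 and 63.1 CPM. Its LPS libraries lay above the PBS libraries in both conditions. The log2 fold change was 0.90 ± 0.14 in sham (1.87-fold, edgeR adjusted p = 7.46e-05) and 1.17 ± 0.14 in irradiated rats (2.25-fold, edgeR adjusted p = 3.3e-06). Nfkbib overlaps the gene LOC103689966 in the RefSeq annotation, and the sources used here do not say whether the counting used strand, so that reads of the 2 genes may not be separable.

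Nfkbie, which encodes IkB-epsilon, was the member whose rise in sham rats did not pass the test. Its sham libraries overlapped, at 93.4, 79.7, 86.1 and 98.3 CPM with PBS and 113.7, 76.8, 126.5 and 83.2 CPM with LPS, a log2 difference of 0.16 ± 0.16 (edgeR adjusted p = 0.477, 95% interval of the fold 0.891 to 1.41). In irradiated rats all LPS libraries, at 165.2, 154.0, 102.3 and 125.7 CPM, were above the PBS libraries at 91.4, 91.4, 77.8 and 81.9 CPM. The log2 fold change there was 0.68 ± 0.16 (1.60-fold, edgeR adjusted p = 0.00284). The difference between both responses was tested directly and did not pass (0.51 ± 0.22 on the log2 scale, edgeR adjusted p = 0.358).

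As a fold between group means, the atypical inhibitors had the widest range over the groups, whereas in CPM Nfkbia spanned more. Nfkbiz, an inducible cofactor of NF-kB at secondary response genes, stood at 23.2, 20.4, 17.8 and 21.1 CPM in sham PBS and at 152.8, 129.6, 189.6 and 125.7 CPM in sham LPS. In irradiated rats it stood at 48.9, 63.3, 46.9 and 52.6 CPM with PBS and at 184.1, 160.0, 225.5 and 297.2 CPM with LPS. The 4 irradiated PBS libraries thus lay between the sham PBS and the sham LPS libraries, without overlap with either. The LPS response was 2.86 ± 0.18 on the log2 scale in sham rats (7.24-fold, edgeR adjusted p = 4.86e-09) and 2.03 ± 0.18 in irradiated rats (4.09-fold, edgeR adjusted p = 1.4e-07).

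Bcl3 was close to absent in sham PBS, at 0.669, 1.15, 0.828 and 1.88 CPM, which were 11 to 38 counts per library. The irradiated PBS libraries held 5.66, 3.55, 3.41 and 6.27 CPM (64 to 172 counts). With LPS the levels were 69.9, 50.1, 87.4 and 70.3 CPM in sham and 100.9, 92.5, 84.7 and 99.3 CPM in irradiated rats. The PBS groups were separated from each other and from both LPS groups, while the LPS groups overlapped. The LPS response was 5.92 ± 0.28 on the log2 scale in sham rats (edgeR adjusted p = 1.49e-10) and 4.31 ± 0.25 in irradiated rats (19.9-fold, edgeR adjusted p = 1.67e-09). These calls for LPS, and those of the 9 other members, stayed on the same side of the threshold in each of the 260 alternative values computed in either condition, the ones without both irradiated libraries numbered 1 included. Some of these values left out only libraries of groups that were not compared, which is a weaker check.

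**Figure D2:**
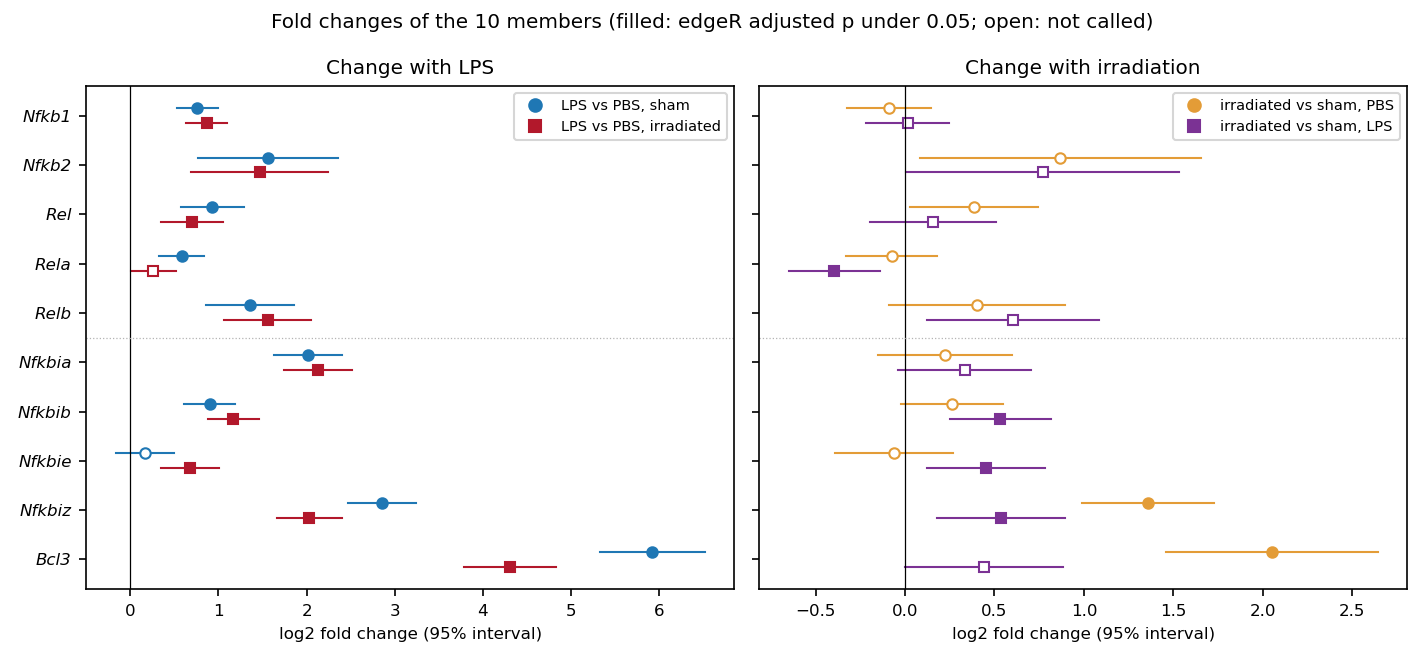
Log2 fold change (horizontal axis) of each member with LPS (left) and with irradiation (right), with 95% intervals from edgeR; filled symbols passed an adjusted p of 0.05 and open symbols did not. The LPS changes of Bcl3 and Nfkbiz are larger in sham than in irradiated rats, and the change with irradiation under PBS is filled for Nfkbiz and Bcl3 alone.

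The effect of irradiation by itself was addressed by comparing irradiated with sham rats given PBS, and few members passed the test. A member that did not pass is not thereby shown to be unchanged. Bcl3 and Nfkbiz rose, 8 of the 10 members did not pass the test, and none fell. Of all tested genes 11.5% rose and 9.91% fell, so 2 of 10 is near the background and is not a result about the family as a whole. Bcl3 rose by 2.05 ± 0.28 on the log2 scale (4.14-fold, 95% interval 2.75 to 6.24, edgeR adjusted p = 3.95e-05). Nfkbiz rose by 1.36 ± 0.18 (2.56-fold, 95% interval 1.98 to 3.32, edgeR adjusted p = 2.23e-05). Both calls held without the irradiated libraries numbered 1, with log2 values of 1.98 for Bcl3 and 1.41 for Nfkbiz. Beside these rises, the summed microglial markers were lower and those of border macrophages, monocytes and T and NK cells higher in every irradiated PBS library than in every sham PBS library. Summed endothelial markers (6 of 7 in the files) went from 337 to 420 CPM in sham PBS to 150 to 194 CPM in irradiated PBS, astrocyte markers from 4.95 to 5.96 CPM to 9.1 to 58.8 CPM, and B cell markers from 1.54 to 2.76 CPM to 3.61 to 8.24 CPM, also without overlap. The endothelial sum was mostly Pecam1 and Tek, with means of 196.5 and 153.0 CPM in sham PBS, and Cdh5 at 29.2 CPM. Flt1, Slco1a4 and Kdr held 1.38, 0.451 and 0.0742 CPM there, so the sum is a weak measure of endothelial cells. The part of these marker shifts in the rise of Bcl3 and Nfkbiz was not tested. This comparison shares its sham and irradiated PBS libraries with the LPS comparisons in sham and in irradiated rats.

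The 5 subunits and the 3 classical inhibitors did not pass the test in irradiated PBS rats. Nfkb2 had the largest estimate among them, 0.87 ± 0.37 on the log2 scale (1.82-fold, 95% interval 1.06 to 3.14, edgeR adjusted p = 0.115). It was called with DESeq2 (0.88, DESeq2 adjusted p = 0.0352). Its value depended on single libraries. The sham PBS library numbered 4, at 24.0 CPM, lay within the irradiated range of 20.3 to 26.7 CPM. Without that library the log2 fold change of Nfkb2 was 1.345 and the edgeR adjusted p = 0.00787. Over all omissions of 1 library the log2 fold change ranged from 0.61 to 1.345, with edgeR adjusted p-values up to 0.245. Rel stood at 19.0 to 21.5 CPM in irradiated PBS, above the 14.0 to 16.5 CPM of sham PBS in every library, but the log2 difference of 0.39 ± 0.17 did not pass (edgeR adjusted p = 0.123); with only these 2 groups in the fit it did, at 0.42 and an edgeR adjusted p = 0.0295. Groups that do not overlap, as for Rel, Nfkbiz and Bcl3, were found for 26.7% of all genes in this comparison. Relb differed by 0.40 ± 0.23 (edgeR adjusted p = 0.254) and Nfkbib by 0.26 ± 0.14 (edgeR adjusted p = 0.194). For Nfkbia the difference was 0.22 ± 0.18, with a 95% interval of the fold from 0.902 to 1.51 (edgeR adjusted p = 0.416). The estimates for Nfkb1, Rela and Nfkbie were between -0.09 and -0.06 on the log2 scale, and their sign turned when only library totals were used for scaling (0.07 for Nfkb1, 0.08 for Rela and 0.10 for Nfkbie). That scaling moved the median of all genes in this comparison from -0.005 to 0.151.

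With LPS in both groups, 3 members were higher and 1 lower in irradiated than in sham rats, against 15.1% and 12.6% of all genes. Nfkbib was the one member whose 4 irradiated LPS libraries (45.5 to 63.1 CPM) all lay above its 4 sham LPS libraries (32.6 to 40.5 CPM), a log2 fold change of 0.53 ± 0.13 (1.45-fold, edgeR adjusted p = 0.00564). Groups did not overlap for 26.7% of all genes in this comparison. The call for Nfkbib held in all 26 alternatives, with edgeR or DESeq2 adjusted p-values from 0.00168 to 0.0261. Nfkbie was higher by 0.45 ± 0.16 (1.37-fold, edgeR adjusted p = 0.0384) and Nfkbiz by 0.54 ± 0.17 (1.45-fold, edgeR adjusted p = 0.0242). Rela was 1.31-fold lower, at -0.39 ± 0.12 (edgeR adjusted p = 0.0211).

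These last 3 calls rested on single libraries. Nfkbie lost its call without the irradiated LPS library numbered 1 or 2 and without the sham LPS library numbered 2 or 4 (edgeR adjusted p = 0.113 to 0.132). Nfkbiz lost its call without the irradiated LPS library 3 or 4 or the sham LPS library 2 or 4 (edgeR adjusted p = 0.0525 to 0.112), and Rela without irradiated LPS 4 or sham LPS 3 or 4 (edgeR adjusted p = 0.0606 to 0.0935). Without both irradiated libraries numbered 1, Nfkbie stood at 0.37 on the log2 scale (edgeR adjusted p = 0.139), and the other 3 calls held. Relb, at 0.60 ± 0.23 (edgeR adjusted p = 0.0573), fell short in the full data with edgeR and passed with DESeq2 (0.60, DESeq2 adjusted p = 0.0417), under scaling by library totals only (0.68, edgeR adjusted p = 0.0399), and also without irradiated LPS 3 or sham LPS 1 or 3 (edgeR adjusted p = 0.0149 to 0.0479). Nfkb2 differed by 0.77 ± 0.36 (edgeR adjusted p = 0.131) and passed without irradiated LPS 2 (edgeR adjusted p = 0.0415).

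Bcl3 differed by 0.44 ± 0.21 under LPS (edgeR adjusted p = 0.133, 95% interval of the fold 1.0 to 1.85) and Nfkbia by 0.33 ± 0.18 (edgeR adjusted p = 0.18, interval 0.974 to 1.63). Rel differed by 0.15 (edgeR adjusted p = 0.551) and Nfkb1 by 0.01 (edgeR adjusted p = 0.946). The irradiated LPS libraries had the lowest microglial and the highest border macrophage, monocyte and T and NK cell marker sums of the 4 groups, and their part in these differences was not tested. The comparison shares both of its LPS groups with the LPS comparisons above.

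Whether irradiation altered the response to LPS was asked with the interaction term, the LPS fold change in irradiated rats minus that in sham rats. Bcl3 was the one member called, with a log2 difference of -1.61 ± 0.35 (95% interval -2.35 to -0.87, edgeR adjusted p = 0.0293), so that its fold change with LPS was 3.05-fold smaller in irradiated rats. Of all tested genes 0.61% had a larger and 0.647% a smaller response, 171 genes or 1.26% in all. The value of Bcl3 stayed between -1.97 and -1.43 in all 25 alternatives, but the call was lost in 10 of them. It was lost in 9 of the 16 omissions of 1 library, those of sham PBS 1, 2 and 3, sham LPS 4, irradiated PBS 1 and 4, and irradiated LPS 2, 3 and 4 (edgeR adjusted p = 0.0508 to 0.0885). Without both irradiated libraries numbered 1 it was -1.55 (edgeR adjusted p = 0.0874).

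The smaller fold of Bcl3 came with a higher starting level and not with a lower level after LPS. On the CPM scale Bcl3 gained 68.3 ± 7.63 CPM (SE) with LPS in sham rats and 89.6 ± 3.77 CPM in irradiated rats, so the order of the responses depended on the scale. Nfkbiz behaved alike in this respect: its log2 response differed by -0.82 ± 0.24 (edgeR adjusted p = 0.125), while its gain was 129 ± 14.7 CPM in sham and 164 ± 30.3 CPM in irradiated rats. Nfkbia gained 545 ± 65.6 CPM in sham and 703 ± 43.8 CPM in irradiated rats, with a log2 difference of 0.11 ± 0.25 (edgeR adjusted p = 0.926). The CPM gains are a description and were not tested.

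For the other members the difference in response did not pass. It was -0.32 ± 0.17 for Rela (edgeR adjusted p = 0.514), whose gain was 40.0 ± 12.4 CPM in sham and 15.3 ± 5.28 CPM in irradiated rats. For Nfkbib it was 0.27 (edgeR adjusted p = 0.653), for Relb 0.20 (edgeR adjusted p = 0.893), for Rel -0.23 (edgeR adjusted p = 0.799) and for Nfkb1 0.10 (edgeR adjusted p = 0.88). The estimate for Nfkb2 was -0.10 ± 0.51 with a 95% interval from -1.19 to 0.99 (edgeR adjusted p = 0.972).

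**Figure D3:**
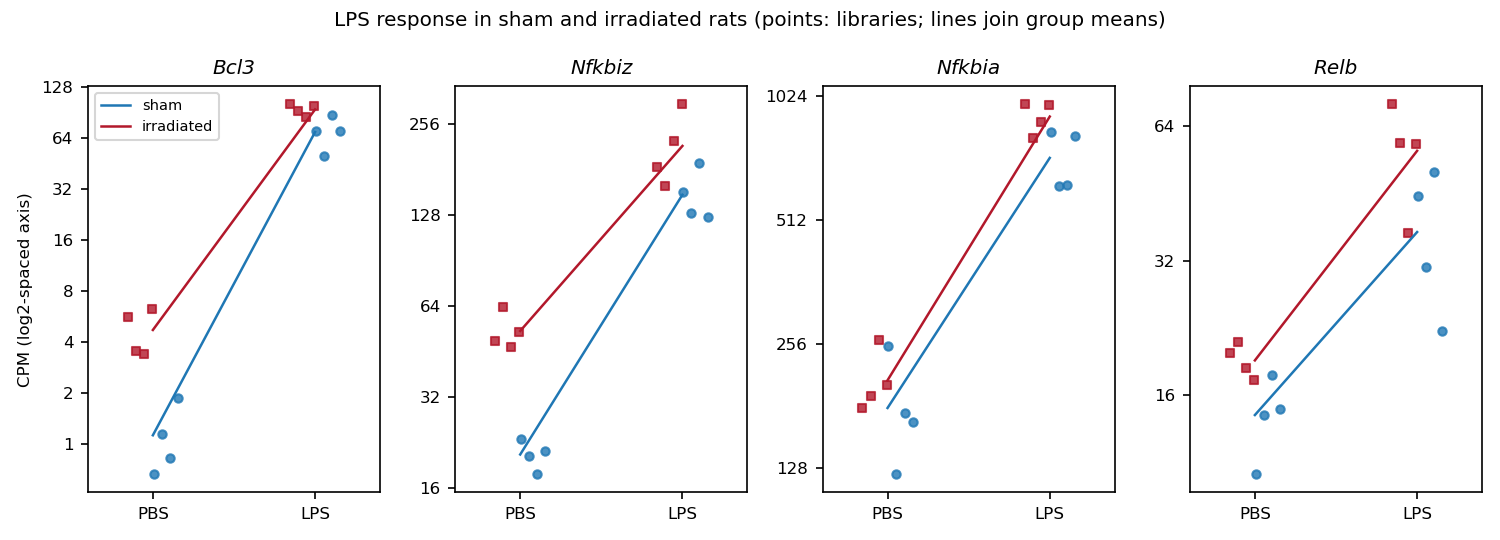
CPM of Bcl3, Nfkbiz, Nfkbia and Relb (vertical axis, spaced by log2) with PBS and with LPS; points are libraries of sham (circles) and irradiated (squares) rats, and lines join the means of 4 libraries. The irradiated line of Bcl3 starts at 4.72 CPM against 1.13 CPM in sham and ends at 94.3 against 69.4 CPM, so it is the flatter one.

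Arranged by group mean, 7 of the members followed the same order of levels, sham PBS, irradiated PBS, sham LPS and irradiated LPS from lowest to highest. These were Nfkb2, Rel, Relb, Nfkbia, Nfkbib, Nfkbiz and Bcl3. In this order, the step from sham PBS to irradiated PBS was free of overlap for Rel, Nfkbiz and Bcl3, and the step from irradiated PBS to sham LPS was free of overlap for all 7. The step from sham LPS to irradiated LPS was free of overlap for Nfkbib alone. Over all genes, groups did not overlap in either direction for 26.7% in the step between the PBS groups. The share was also 26.7% in the step between the LPS groups. For the step from irradiated PBS to sham LPS, and for the order as a whole, the share of all genes was not computed. Neither can therefore be called particular to the family. Nfkb1 and Nfkbie had irradiated PBS lowest (61.5 ± 6.86 and 85.6 ± 6.86 CPM, mean ± SD, n = 4), with sham PBS next and irradiated LPS highest. Rela was the member with its highest mean in sham LPS, 120.4 ± 23.1 CPM against 91.7 ± 8.47 CPM in irradiated LPS, and each of its neighbouring groups overlapped.

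The balance of reads between inhibitors and subunits shifted with LPS. Reads of the 5 inhibitor genes made up 54.9% to 69.1% of the reads of all 10 members in sham PBS (61.8% ± 5.95, SD, n = 4) and 73.4% to 78.7% in sham LPS (76.2% ± 2.26). In irradiated rats the share was 63.2% to 67.1% with PBS (65.2% ± 2.17) and 78.3% to 80.7% with LPS (79.8% ± 1.05). The LPS libraries were above the PBS libraries in both conditions, while sham and irradiated libraries overlapped within each treatment. Nfkbia alone supplied 28.0% to 44.8% of the member reads in sham PBS, 42.9% to 55.6% in sham LPS, 32.0% to 42.8% in irradiated PBS and 50.2% to 53.2% in irradiated LPS. The summed level of all 10 members was 441.7 to 563.9 CPM in sham PBS, 1200 to 1540 CPM in sham LPS, 559.2 to 611.1 CPM in irradiated PBS and 1587 to 1943 CPM in irradiated LPS. These shares count reads, which longer transcripts yield in greater number, and they were not tested. They include Nfkbiz and Bcl3, so the inhibitor share is not a measure of inhibition.

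**Figure D4:**
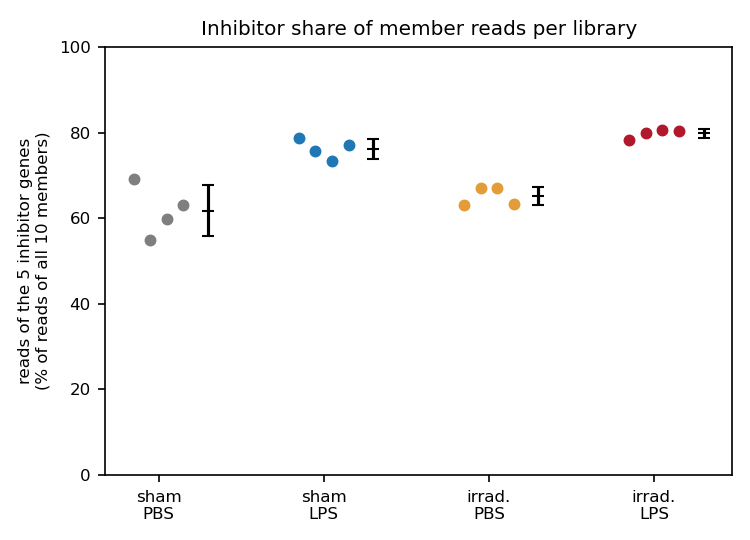
Reads of the 5 inhibitor genes as a percentage of the reads of all 10 members (vertical axis) in each of the 16 libraries, with the mean and SD of each group of 4. The LPS libraries sit between 73.4% and 80.7% and the PBS libraries between 54.9% and 69.1%.

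The genes that act upstream of the family were counted from lists of the pathway, which were written with earlier results of these data known. Of 17 tested kinases around the IkB kinase complex, 6 rose and 1 fell with LPS in sham rats and 9 rose and 1 fell in irradiated rats. Over all tested genes, 15.2% rose and 14.5% fell in sham rats and 17% rose and 14.5% fell in irradiated rats, and the same shares apply to the LPS counts of the lists that follow. Map3k8, a kinase held inactive by p105, rose by 1.89 ± 0.16 on the log2 scale in sham and 1.99 ± 0.16 in irradiated rats (edgeR adjusted p = 1.22e-07 and 5.46e-08), and Ripk1, a kinase of the TNF receptor complex, by 1.07 ± 0.09 and 1.15 ± 0.09 (edgeR adjusted p = 9.02e-08 and 3e-08). Tank rose by 0.63 and 1.42 (edgeR adjusted p = 0.00338 and 9.94e-07). Ikbke fell by 1.08 in sham rats (edgeR adjusted p = 0.0238), a call lost without sham PBS 2 or 4 or sham LPS 1 or 2 (edgeR adjusted p = 0.056 to 0.0703). Map3k14, the NIK kinase of the branch to Nfkb2 and Relb, was lower with LPS by 0.84 ± 0.20 in irradiated rats (edgeR adjusted p = 0.00405), whereas in sham rats its value of -0.54 ± 0.21 did not pass (edgeR adjusted p = 0.0573; 0.0468 with DESeq2). The difference of these responses did not pass either, at -0.30 ± 0.29 (edgeR adjusted p = 0.778).

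Irradiation raised 2 of these kinases under PBS and 4 under LPS, with 0 and 1 lower. Of all tested genes 11.5% were higher and 9.91% lower under PBS and 15.1% higher and 12.6% lower under LPS, shares that also apply to the lists that follow, so the PBS count is near the background. Irak3, a catalytically inactive relative of the IRAK kinases that restrains toll-like receptor signalling, went from 2.78 to 11.7 CPM with PBS (log2 2.06 ± 0.34, edgeR adjusted p = 0.000227) and from 4.65 to 32.3 CPM with LPS (2.79 ± 0.34, edgeR adjusted p = 6.01e-06). Tank was higher by 1.22 with LPS (edgeR adjusted p = 5.87e-06). With PBS it was higher by 0.43 (edgeR adjusted p = 0.0446), a call lost in 14 of 26 alternatives, those that left out any one of the irradiated libraries, sham PBS 2, 3 or 4, or sham LPS 1 included (edgeR adjusted p up to 0.145). Under LPS Tbk1 was higher by 0.57 (edgeR adjusted p = 0.00139) and Ripk2 lower by 0.40 (edgeR adjusted p = 0.0199). The call for Ripk2 was lost without irradiated LPS 1 or 4, without sham LPS 2 or 3, with only these 2 groups in the fit, and without both irradiated libraries numbered 1 (-0.30, edgeR adjusted p = 0.0905). The fourth kinase higher under LPS, named here after its values were seen, was Irak2 (0.54, edgeR adjusted p = 0.00497).

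Among 15 tested adaptors and ubiquitin ligases, 5 rose and 4 fell with LPS in sham rats, and 6 rose and 2 fell in irradiated rats. Birc3, the ligase cIAP2, rose from 7.18 to 43.1 CPM in sham (2.59 ± 0.23, edgeR adjusted p = 4.15e-07) and from 13.9 to 163.0 CPM in irradiated rats (3.55 ± 0.23, edgeR adjusted p = 1.01e-08). Myd88, the adaptor of most toll-like receptors, rose by 0.68 and 0.75 (edgeR adjusted p = 1.64e-05 and 3.93e-06), and Birc2 by 0.51 and 0.83 (edgeR adjusted p = 0.000271 and 1.15e-06). Tradd fell by 0.45 and 0.40 (edgeR adjusted p = 0.00794 and 0.0131), and lost its call in irradiated rats without irradiated PBS 1 (edgeR adjusted p = 0.0534) and without both irradiated libraries numbered 1 (edgeR adjusted p = 0.0923). In sham rats Traf5 and Traf3 fell by 1.05 and 1.07 (edgeR adjusted p = 0.00225 and 0.00798), and in irradiated rats Sharpin fell by 0.33 (edgeR adjusted p = 0.0135; 0.0572 without irradiated PBS 4). The remaining calls in sham rats, named after their values were seen, were rises of Rnf31 (0.59, edgeR adjusted p = 0.000588) and Bcl10 (0.34, edgeR adjusted p = 0.0188) and a fall of Sharpin (-0.32, edgeR adjusted p = 0.0182). The call for Bcl10 was lost without sham PBS 2 or 4 or sham LPS 3 or 4, and that for Sharpin without sham PBS 1 or sham LPS 2 (edgeR adjusted p up to 0.0694). Irradiation raised 2 and lowered 1 of this list under PBS and raised 5 and lowered none under LPS, of which the PBS count is again near the background. Traf1 was higher by 1.65 with PBS and 2.67 with LPS (edgeR adjusted p = 8.8e-05 and 4.32e-07), Birc3 by 0.96 and 1.92 (edgeR adjusted p = 0.00595 and 4.17e-06), and Birc2 by 0.40 under LPS (edgeR adjusted p = 0.00202). Traf6 was lower by 0.47 under PBS (edgeR adjusted p = 0.00506). Traf3 and Traf5, again named after their values were seen, were higher by 0.84 and 0.69 under LPS (edgeR adjusted p = 0.0333 and 0.0328). These calls were lost in 8 and 9 of 26 alternatives: Traf3 without irradiated LPS 1 or 2 or sham LPS 2, 3 or 4, Traf5 without any one of the irradiated LPS libraries or sham LPS 2 or 3, and both without both irradiated libraries numbered 1 (edgeR adjusted p up to 0.0998).

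Brakes on NF-kB other than the 5 inhibitors above, a list that includes the IkB-related genes Nfkbid and Nfkbil1, held the 2 genes of these pathway lists, target genes aside, whose LPS response was called as different between irradiated and sham rats. Of 15 tested, 6 rose and 1 fell with LPS in sham rats (median log2 0.39) and 7 rose and 1 fell in irradiated rats (median 0.55). Tnfaip3, which encodes the ubiquitin-editing enzyme A20, went from 73.0 to 124.2 CPM in sham rats (0.77 ± 0.17, edgeR adjusted p = 0.00249) and from 60.3 to 241.4 CPM in irradiated rats (2.00 ± 0.18, edgeR adjusted p = 1.87e-07). The difference was 1.23 ± 0.24 (edgeR adjusted p = 0.0155). Tnip1, which encodes an A20-binding protein, stood at 27.7 and 27.6 CPM with PBS and LPS in sham rats (-0.005 ± 0.17, edgeR adjusted p = 0.987) and at 41.8 and 145.7 CPM in irradiated rats (1.80 ± 0.17, edgeR adjusted p = 3.95e-07), a difference of 1.81 ± 0.24 (edgeR adjusted p = 0.00102). Both differences ran in the opposite direction to that of Bcl3. The call for Tnip1 held in all 25 alternatives, and that for Tnfaip3 was lost without both irradiated libraries numbered 1 (1.03, edgeR adjusted p = 0.0566).

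Other brakes rose in both conditions. Tnip2 rose by 1.35 and 1.99 (edgeR adjusted p = 4.97e-05 and 6.3e-07), and Zc3h12a, the RNase regnase-1, from 22.6 to 43.4 CPM in sham and from 22.7 to 64.4 CPM in irradiated rats (edgeR adjusted p = 0.00132 and 1.31e-05). Pdlim2 fell by 0.51 and 0.50 (edgeR adjusted p = 0.0386 and 0.0404). Its call was lost in 8 of 26 alternatives in sham rats, among them those without sham PBS 1, 3 or 4 or sham LPS 1, 2 or 4 (edgeR adjusted p up to 0.119). In irradiated rats it was lost in 10 of 26, among them those that left out any one of the irradiated LPS libraries, irradiated PBS 2, 3 or 4, or sham PBS 1 (edgeR adjusted p up to 0.167). Tnip3 had no counts in any sham PBS library and 5 to 17 counts in the sham LPS libraries, at least 4.66-fold higher against a floor of 3 counts per library. Irradiation raised 2 brakes under PBS, near the 11.5% of all genes, and 8 under LPS, against 15.1%, and lowered none. Under PBS these were Tnip1, at 0.59 ± 0.17 (edgeR adjusted p = 0.0187), and Tnip3, with 2 to 15 counts in irradiated PBS, at least 3.11-fold higher. The call for Tnip1 was lost without irradiated PBS 1 or 2 (edgeR adjusted p = 0.0724 and 0.0519). Under LPS Tnip1 was higher by 2.40 (edgeR adjusted p = 2.55e-08), Tnfaip3 by 0.96 (edgeR adjusted p = 0.000367) and Cyld, a deubiquitinase, by 0.63 (edgeR adjusted p = 0.000479).

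Of 8 genes of the machinery that degrades the classical inhibitors, 2 rose with LPS in sham rats and 1 in irradiated rats, and none fell, against 15.2% and 17% of all genes that rose. Ube2d3, an E2 ubiquitin-conjugating enzyme, rose by 0.89 and 1.24 (edgeR adjusted p = 3.41e-05 and 6.39e-07), and Fbxw11, an F-box protein that recognises phosphorylated IkB, by 0.62 in sham rats (edgeR adjusted p = 0.0163). The call for Fbxw11 was lost without sham PBS 1 or sham LPS 3 or 4 (edgeR adjusted p = 0.0507 to 0.0536). With irradiation 1 rose under PBS, Nedd8, by 0.37 (edgeR adjusted p = 0.0265). Under LPS 2 rose, Ube2d3 by 0.47 and Nedd8 by 0.32 (edgeR adjusted p = 0.00775 and 0.0403), and Fbxw11 was lower by 0.54 (edgeR adjusted p = 0.0357). These irradiation calls for Nedd8 and Fbxw11 were lost without both irradiated libraries numbered 1. They were also lost without single libraries: under PBS, Nedd8 without irradiated PBS 1 or 4 or sham PBS 1 or 2 (edgeR adjusted p up to 0.085). Under LPS, Nedd8 lost its call without irradiated LPS 1, 2 or 4 or sham LPS 1 or 2 (edgeR adjusted p up to 0.132), and Fbxw11 without irradiated LPS 1, 2 or 4 or sham LPS 2, 3 or 4 (edgeR adjusted p up to 0.106).

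Textbook NF-kB target genes, from a list written with earlier results of these data known, rose in large number. Of 27 tested, 21 rose and none fell with LPS in sham rats (median log2 2.19), and 24 rose and none fell in irradiated rats (median 2.36), against 15.2% and 17% of all genes that rose. Icam1, an adhesion molecule, rose by 1.86 and 1.94 (edgeR adjusted p = 4.86e-09 and 4.37e-09), and Irf1, a transcription factor, by 2.51 in sham rats (edgeR adjusted p = 1.89e-08). With irradiation 12 were higher and 1 lower under PBS, and 20 higher and 2 lower under LPS, against 11.5% and 15.1% of all genes that were higher. Il6 was the target lower in both, by 1.27 and 1.02 (edgeR adjusted p = 0.00595 and 0.0167), and Cd83 was lower by 0.51 under LPS (edgeR adjusted p = 0.00146). Plau, which encodes urokinase, was higher by 3.39 and 4.16 (edgeR adjusted p = 1.31e-07 and 1.56e-08), and Gadd45b by 3.08 under PBS (edgeR adjusted p = 0.00015).

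For 4 targets the LPS response was larger in irradiated rats and for none smaller, against 0.61% and 0.647% of all genes. The response of Bcl3 was smaller. Sod2, the mitochondrial superoxide dismutase, rose from 70.7 to 321.7 CPM in sham and from 144.3 to 2019 CPM in irradiated rats, a difference of 1.62 ± 0.23 (edgeR adjusted p = 0.00147). Ebi3, a cytokine subunit, differed by 1.51 ± 0.31 (edgeR adjusted p = 0.0203) and Cflar, which encodes the caspase regulator c-FLIP, by 0.68 ± 0.14 (edgeR adjusted p = 0.0209). The fourth was Bcl2a1 (1.05, edgeR adjusted p = 0.0409), named after its value was seen, whose call was lost in 15 of 25 alternatives, 13 of them omissions of 1 library from any of the 4 groups (edgeR adjusted p up to 0.127). Ebi3 lost its call without sham PBS 3 (edgeR adjusted p = 0.0559) and without both irradiated libraries numbered 1 (edgeR adjusted p = 0.0557), and Cflar without sham PBS 3 or irradiated LPS 4 (edgeR adjusted p = 0.053 and 0.051).

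The genes whose log2 CPM over the 16 libraries was most like that of a member are given as a description, since the libraries share the 4 groups. For Bcl3 they were Strip2 (Pearson r = 0.991), Gch1 (0.983) and Smim3 (0.978). For Nfkbia they were Arid5a (0.979), Ch25h (0.972) and Card14 (0.97), and for Nfkbiz Cxcl1 (0.981), Baz1a (0.976) and Phyhd1 (0.975). Relb was most like Il1b (0.934), Cxcl10 (0.933) and Cwc22 (0.933).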

How the data were processed

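The authors deposited whole-number counts of reads per gene, unnormalised, as 1 file per library and as 1 matrix by gene symbol; 0 of 160 member values differed between them. Per the submitters' processing notes, FastQC 0.11.9, fastp 0.23.2 and HTSeq 2.0.2 were used with the genome build mRatBN7.2; the aligner, annotation release and strand setting were not given in the sources used here. The deposited counts by gene identifier were fitted with edgeR 4.0.16 (limma 3.58.1, R 4.3.3): genes were filtered by expression, library totals scaled by the trimmed mean of M-values, and a robust quasi-likelihood model fitted to all 16 libraries with 1 term per group (12 residual degrees of freedom, common biological coefficient of variation 0.289). P-values were adjusted by Benjamini and Hochberg over 13608 genes, and a gene was called below 0.05. SE is the log2 fold change divided by the square root of F. The script was tested on simulated data. Chi-square per degree of freedom was at least 19.2 in all 24 pairs of replicates, so no library was a copy.

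The members and gene lists were chosen with earlier results of these data known. Every member was named, as were Tnfaip3 and Map3k14, up to 3 genes with the smallest p-values per list and direction, and the 3 genes most correlated with Bcl3, Nfkbia, Nfkbiz and Relb. Tab1, Ticam1, Commd1 and Saa3 were listed but not tested. Alternatives were DESeq2 1.42.0, other scalings, no filter, the symbol matrix, fits of 2 groups, omission of libraries and, chosen after seeing the data, thinning to the smallest total. Each of the 16 libraries was left out in turn for every comparison, also libraries of groups that were not compared. Promoter windows and gene overlaps came from RefSeq tables of GRCr8, another build than that of the counts.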

Additional observations from a re-analysis of the deposited data

Results flagged for a closer look

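In sham rats given LPS, the library numbered 1 held 38.5 CPM of Rel, the c-Rel subunit gene, while the other 3 libraries held 25.2 to 27.3 CPM. Its gap to the next library was 0.843 of the group's range, above Dixon's 95% critical value for 4 libraries. This was the one such case among the 40 combinations of member and group, of which chance gives about 1 in 20.

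The LPS response of Bcl3 differed between irradiated and sham rats by -1.61 on the log2 scale in edgeR's interaction term, the one member for which this test passed. The call was lost in 10 of 25 alternatives (edgeR adjusted p up to 0.0885), and on the CPM scale the gain with LPS was larger in irradiated than in sham rats (89.6 against 68.3 CPM, not tested).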

How the results depend on the processing

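With 4 libraries per group and at least 14309458 counts per library, differences among members with intervals that include no change were not resolved. LPS calls of members held in all alternatives run. For irradiation under PBS, scaling by library totals alone called 4 members higher (Rel 0.542 and Nfkbib 0.424 added) and turned Nfkb1, Rela and Nfkbie to 0.069, 0.08 and 0.095. For irradiation under LPS, 0 members were lower with library totals alone (Rela -0.313), and 1 was higher and 0 lower with only the 2 groups compared. Nfkb1 turned to -0.005 after thinning and ranged from -0.055 to 0.077 without single libraries, and Map3k14 from -0.036 to 0.278. For the difference in response, DESeq2 called 2 members lower (Nfkbiz -0.835 added) and 418 genes in all. Leaving out both irradiated libraries numbered 1 gave 0 members and 98 genes. Omission of single libraries gave 2 to 3 members higher under PBS, 1 to 4 higher and 0 to 1 lower under LPS, and 0 to 1 lower among 103 to 191 genes for the difference, where Nfkb2 ranged from -0.577 to 0.158 and Nfkbia from -0.102 to 0.252. Omission of single libraries left 9 members higher with LPS in both conditions.

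With library totals alone, the share of calls that were higher moved from 54.0% to 39.2% for LPS in irradiated rats, from 53.7% to 76.3% for irradiation under PBS, and from 48.5% to 28.0% for the difference. The labels do not say that a library number marks a shared animal, litter or day. Deviations of same-numbered libraries correlated by -0.089 to 0.405, and 17 of 24 correlated best with their own number (4 of 4 between sham and irradiated PBS), a hint from the data and not from the design. With the replicate block Nfkb2 was called for irradiation under PBS (0.953, edgeR adjusted p = 0.0448), and the block changed no other call of a member.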
